A study of Caenorhabditis elegans with 2 samples.

Results

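Genes of 5 families of digestive hydrolases were compared between 2 samples of whole Caenorhabditis elegans, together with lmp-1, a gene for a lysosomal membrane protein. They were chosen by symbol: cpr-, cpl-1 and cpz-1 (cysteine cathepsins), asp- (aspartyl proteases), ctsa- (serine carboxypeptidases), lipl- (lipases) and pho- (acid phosphatases), each with an Affymetrix probe set that the platform annotation gives to that gene alone. This gave 52 of the 17118 genes with such a set, read by 60 probe sets. The name rule says nothing of where an enzyme works, and message levels cannot show it. Several members of these families are secreted or act in the gut lumen, so the genes are called hydrolase genes here.

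Both samples were total RNA of animals fed the Escherichia coli strain HT115, whose double-stranded RNA is taken up from the gut and triggers RNA interference (RNAi). In 1 sample this RNA matched imp-2, a gene of the signal peptide peptidase family of intramembrane proteases. In the other, the control, it matched green fluorescent protein (GFP), from a jellyfish gene that worms lack. The sources used here do not give strain, stage, age or the number of animals. With 1 array per group there is no replicate check and no test of any difference, and the precision is limited by the number of arrays. The labelled source also names a part of the mammalian brain, which a nematode does not have.

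The 2 probe sets of imp-2 pointed in opposite directions. One read 1754 on the array labelled imp-2 RNAi (the imp-2 array) and 2318 on the array labelled GFP RNAi (the GFP array), and the other read 2517 and 510. The target gene thus cannot check the labels, and each direction below is one between labels. Of all genes, 8553 counted as expressed, which means a mean log2 intensity over both arrays above the median of all probe sets that are not controls. A ratio is the log2 intensity on the imp-2 array minus that on the GFP array, centred on the expressed genes. Values under an array's median (35.3 on the imp-2 array, 30.1 on the GFP array) were raised to that floor, so a ratio against them is a lower bound. A gene was counted as higher or lower from 2-fold on. The spread of a single probe set, estimated from the differences between pairs of sets of 1 gene, was 0.37 on the log2 scale. It covers disagreement within these arrays and nothing about the spread between cultures. Of 2489 such pairs, 66.7% had ratios of the same sign.

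Lysosomes break down protein, lipid and phosphate esters with hydrolases that work in acid. In C. elegans they are prominent in the intestine, where the gut granules are lysosome-related organelles. Cathepsins are the main proteases: many, though not all, cysteine and aspartyl cathepsins cut within proteins, and serine carboxypeptidases trim their C-terminal ends. Acid lipases release fatty acids from stored lipid, and some lipl genes are known to be induced by fasting through HLH-30, the homologue of mammalian TFEB.

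Of the 52 hydrolase genes, 35 were expressed. Of these, 12 were 2-fold or more higher on the imp-2 array, or 34.3%, against 9.72% of all expressed genes. A single one, asp-13, was lower to that degree, against 2.27% of all expressed genes, while 22 did not reach 2-fold. Of those 22, asp-8 and pho-10 are lower bounds, since they lay under the floor on the GFP array, and 0 of the called hydrolase genes are bounds. Among all expressed genes, 139 of the 831 that were higher are bounds. The ratio was above 0 for 29 of the 35 hydrolase genes and below 0 for 6. The 29 include asp-8, pho-10 and pho-6, which counted as expressed only through the imp-2 array, so their ratios could only be high. Of these, pho-6 is among the 12 called higher. Its GFP array value of 32.09 lies above the floor but just under the limit for an expressed gene, a mean intensity of 32.14. The median log2 ratio of the 35 was 0.56, where the median over all expressed genes is 0 by construction. Above the 75th percentile of brightness, which leaves asp-8, pho-10 and pho-6 out, 19 of 24 were above 0. The median there was 0.64, against −0.09 for all genes of that brightness. In bulk samples a change in the number of cells of a type cannot be told apart from a change in RNA per cell.

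**Figure D1:**
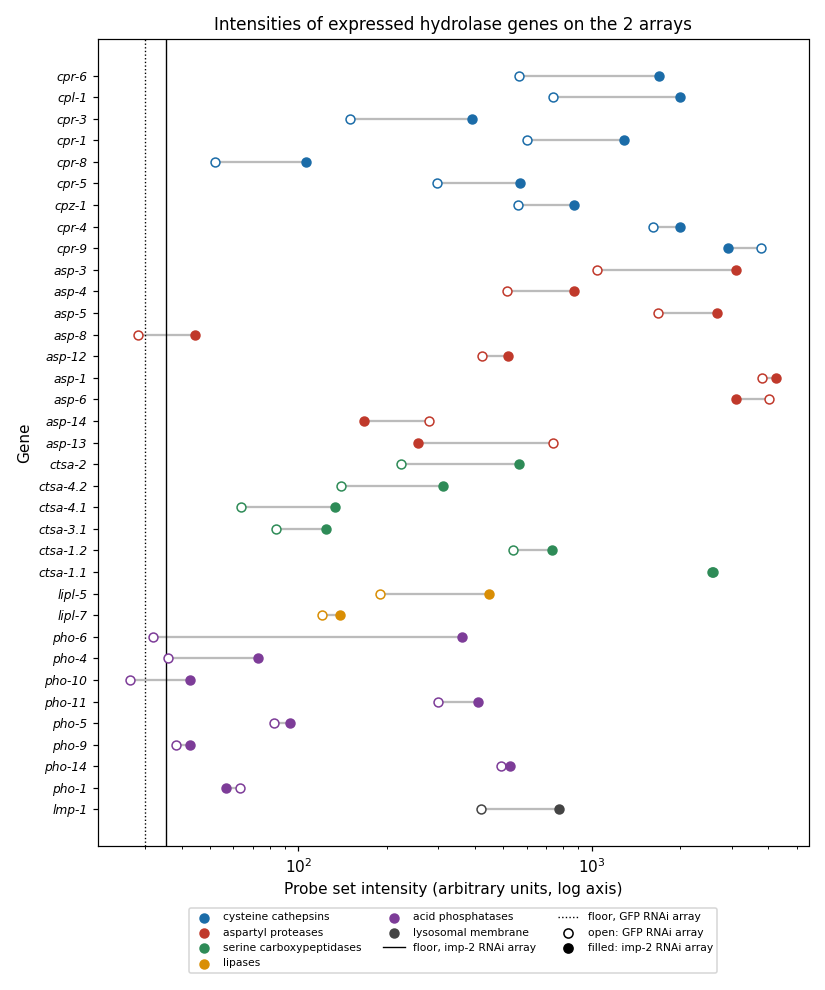
Probe set intensity (arbitrary units, log axis) of the 35 expressed hydrolase genes, by family and ordered by ratio, with filled points for the array labelled imp-2 RNAi, open points for the array labelled GFP RNAi and vertical lines at the floors of 35.3 and 30.1. The filled point lies to the right for most genes, by the widest margin for pho-6, and to the left for asp-13, asp-14, asp-6, cpr-9, pho-1 and, by the width of a point at most, ctsa-1.1.

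Cysteine cathepsins held the most calls. Of 9 expressed genes, 5 were 2-fold or more higher on the imp-2 array, or 55.6% against 9.72% of all expressed genes, and none was lower to that degree, with a median log2 ratio of 1.02. The cathepsin B-like gene cpr-6 read 1693 on the imp-2 array and 565 on the GFP array, a ratio of 2.97-fold (log2 ratio 1.57). The cathepsin L gene cpl-1, which acts in yolk processing in the embryo and in molting, read 2004 and 738 (2.69-fold). A dimmer cpl-1 probe set read 68.6 and 53.2, with a log2 ratio of 0.36, so the sets point the same way but differ in size. The cathepsin B-like gene cpr-3 read 391 and 150 (2.60-fold), and its other set gave a log2 ratio of 1.20. The gut cysteine protease gene cpr-1 read 1292 and 604 (2.13-fold), and cpr-8 read 106 and 52.0 (2.02-fold).

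The remaining cathepsin genes of this type lay within 2-fold. Just under the threshold, cpr-5 read 568 on the imp-2 array and 296 on the GFP array (1.90-fold higher). The cathepsin Z gene cpz-1, which takes part in molting, read 871 and 561 (1.54-fold higher). A cathepsin B homologue that can be secreted, cpr-4, read 1998 and 1619 (1.23-fold higher). The single gene of the family with a ratio below 0 was cpr-9, which read 2918 and 3769 (1.30-fold lower). The values of cpr-2 lay under the floor on both arrays (6.40 and 21.4).

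Aspartyl proteases gave 1 call in each direction. Of 9 expressed genes, asp-3 was higher on the imp-2 array by 2-fold or more, asp-13 was lower and 7 did not reach 2-fold, with a median log2 ratio of 0.29. The share higher, 11.1%, is near the 9.72% of all expressed genes. The cathepsin D-like gene asp-3 read 3111 on the imp-2 array and 1043 on the GFP array, which is 2.96-fold higher. Together with asp-4 it is known for its part in the necrotic death of neurons. The asp-4 gene read 873 and 515 (1.68-fold higher), and its other probe set gave a log2 ratio of 0.70 beside 0.75. In the opposite direction, asp-13 read 255 and 736 (2.91-fold lower), and asp-14 read 168 and 280 (1.68-fold lower). The 2 genes differed from asp-3 in sign and were read by 1 probe set each, with a suffix used for sets that may match more than 1 transcript. Among the genes called higher, the sets used for cpl-1, cpr-3 and ctsa-2 carry such a suffix too.

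The other aspartyl protease genes stayed closer to 0. The intestinal protease gene asp-1 read 4252 on the imp-2 array and 3790 on the GFP array (log2 ratio 0.16). Reading 2675 and 1677, asp-5 was 1.58-fold higher, and its second set gave 0.73 beside 0.66. By contrast asp-6 read 3099 and 4011, with −0.38 and −0.40 on its sets. For asp-12 the values were 518 and 421 (log2 ratio 0.29), and asp-8, below the GFP array's floor at 28.5, was at least 1.47-fold higher. Another 6 genes, asp-7, asp-9, asp-11, asp-15, asp-17 and asp-19, lay under the floor on both arrays.

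Among serine carboxypeptidases related to cathepsin A, 3 of 6 expressed genes were 2-fold or more higher on the imp-2 array and none was lower to that degree, with a median log2 ratio of 0.81. The share higher was 50%, against 9.72% of all expressed genes, of which 2.27% were lower. Differences between the families were not tested. The values of ctsa-2 were 563 on the imp-2 array and 223 on the GFP array (2.50-fold). For ctsa-4.2 they were 311 and 140 (2.20-fold), and for ctsa-4.1 they were 133 and 63.6 (2.08-fold). The ctsa-3.1 gene read 125 and 84.2 (1.47-fold higher), while ctsa-1.1 read 2569 and 2599, a log2 ratio of −0.03. The probe sets of ctsa-1.2 disagreed in size: the brighter read 731 and 539 (log2 ratio 0.43) and the other 172 and 60.9 (log2 ratio 1.49, past 2-fold). The ctsa-3.2 gene lay under the floor on both arrays.

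**Figure D2:**
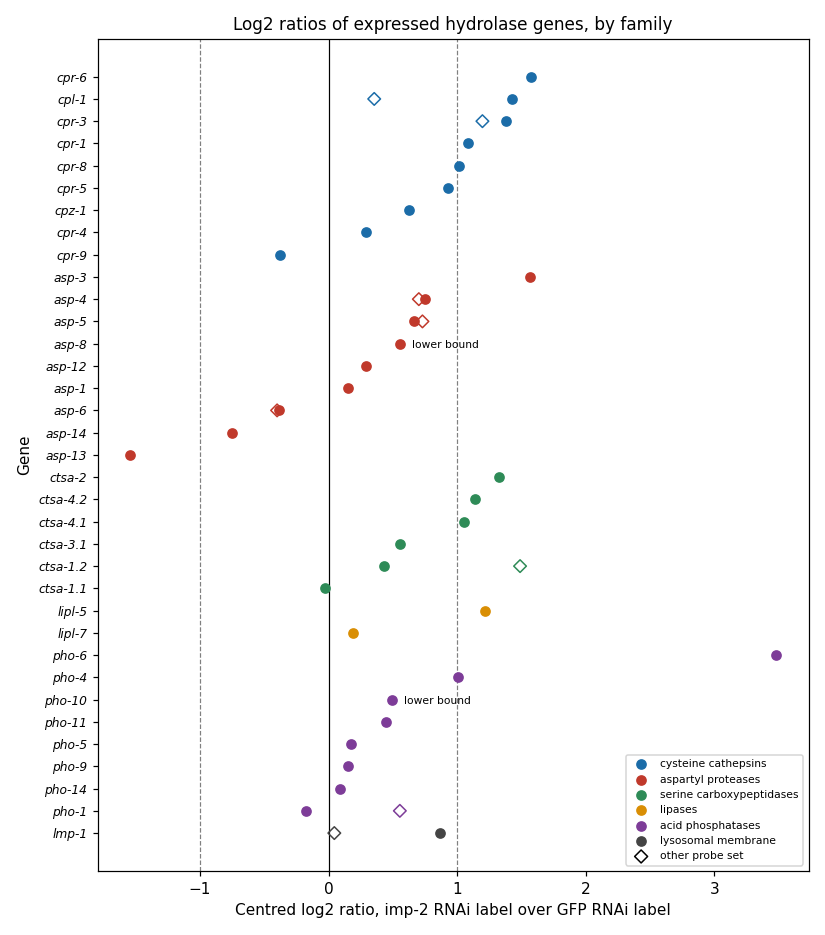
Centred log2 ratio of the imp-2 array over the GFP array for the 35 expressed hydrolase genes by family, with filled points for the brightest probe set of a gene, open diamonds for its other expressed set, and dashed lines at 2-fold. Of the genes, 12 lie at or right of the upper line and asp-13 alone lies left of the lower one, while the diamonds of cpl-1, ctsa-1.2, lmp-1 and pho-1 lie far from their points.

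Most lipase genes could not be measured. Only lipl-5 and lipl-7 of the 8 were expressed. The lipl-5 gene, one of those known to be induced by fasting, read 445 on the imp-2 array and 190 on the GFP array, which is 2.32-fold higher, and lipl-7 read 138 and 120 (1.14-fold higher). Both values of lipl-1, lipl-2, lipl-3, lipl-4, lipl-6 and lipl-8 lay under the floors. Among these are lipl-4, the lysosomal acid lipase gene known from studies of lifespan (12.1 and 1.16), and the fasting-induced lipl-1 and lipl-3. No fold is given for them.

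Acid phosphatases gave the highest ratio of all the hydrolase genes and few other calls. Of 8 expressed genes, 2 were 2-fold or more higher on the imp-2 array and none was lower to that degree, with a median log2 ratio of 0.31. The share higher was 25%, against 9.72% of all expressed genes, of which 2.27% were lower. The pho-6 gene read 361 on the imp-2 array and 32.1 on the GFP array, which is 11.2-fold higher, the fifth highest ratio of the 8553 expressed genes. Its lower value lies just above the floor of 30.1, so the size of the fold rests on a reading near that limit. That value, 32.09, is also just under the mean intensity of 32.14 from which a gene counted as expressed. Thus pho-6 counted as expressed only through the imp-2 array, and its ratio could only be high. The pho-4 gene read 72.8 and 35.9 (2.01-fold higher), also close to the floor and to the threshold.

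The other phosphatase genes differed less. Reading 410 and 299, pho-11 was 1.36-fold higher on the imp-2 array, and pho-14 read 527 and 492 (1.06-fold higher). The log2 ratios of pho-5 and pho-9 were 0.17 and 0.15, and pho-10 was at least 1.41-fold higher. The intestinal acid phosphatase gene pho-1 was the single hydrolase gene whose 2 sets differed in sign: 56.5 on the imp-2 array and 63.4 on the GFP array on the brighter one (log2 ratio −0.18), and 61.2 and 41.4 on the other (0.55). Values of pho-7, pho-8 and pho-13 lay under the floor on both arrays. The lysosomal membrane gene lmp-1, related to mammalian LAMP proteins, read 772 and 420 (1.82-fold higher), but its other set read 365 and 351 (log2 ratio 0.05).

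The threshold ran close to several genes. Just inside it lay pho-4, cpr-8, ctsa-4.1 and cpr-1, with log2 ratios of 1.01, 1.02, 1.06 and 1.09. Just outside lay cpr-5 (0.93), lmp-1 (0.87), asp-4 (0.75) and asp-14 (−0.75). These distances are smaller than the probe set spread of 0.37, so the count of 12 turns on small differences. From 1.5-fold on, 17 of the 35 expressed hydrolase genes were higher, or 48.6%, against 19% of all expressed genes. Lower were 2 of the 35 (asp-13 and asp-14), against 9.6%.

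The share of genes past 2-fold depended on brightness on these arrays, so the hydrolase genes were also counted in 4 equal bins of the expressed genes, ordered by mean log2 intensity. In the brightest bin, 4 of 16 hydrolase genes were 2-fold or more higher on the imp-2 array, against 2.43% of all genes there: cpr-6, cpl-1, cpr-1 and asp-3. The median log2 ratio of the 16 was 0.53, against −0.10 for all genes of that bin. In the third bin, 4 of 8 were higher, against 6.31%. The second held 3 higher of 6, against 15.9%, and the dimmest 1 of 5, against 14.2%. Among the 3 is pho-6, and among the 5 are asp-8 and pho-10, which counted as expressed only through the imp-2 array, as pho-6 did. The 1 lower gene, asp-13, lay in the third bin, where 1.78% of all genes were lower. In the dimmest, second and brightest bins 2.15%, 3.23% and 1.92% of all genes were lower, and 0 hydrolase genes.

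**Figure D3:**
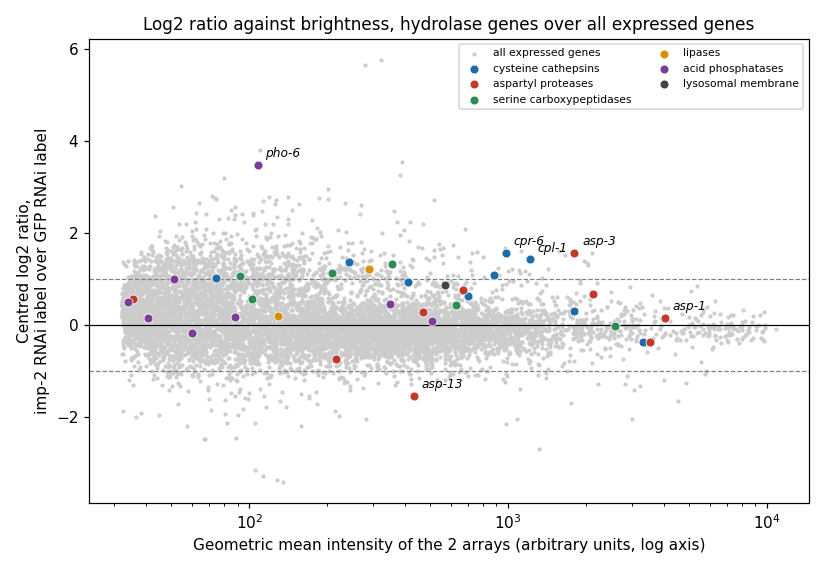
Centred log2 ratio against the geometric mean intensity of both arrays (log axis), with grey points for the 8553 expressed genes, coloured points for the hydrolase genes by family and dashed lines at 2-fold. The grey cloud narrows as intensity rises. The points of asp-3, cpr-6 and cpl-1 lie above the upper dashed line and asp-13 lies below the lower one, each with other genes. The point of pho-6 lies near the upper edge of the cloud.

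**Figure D4:**
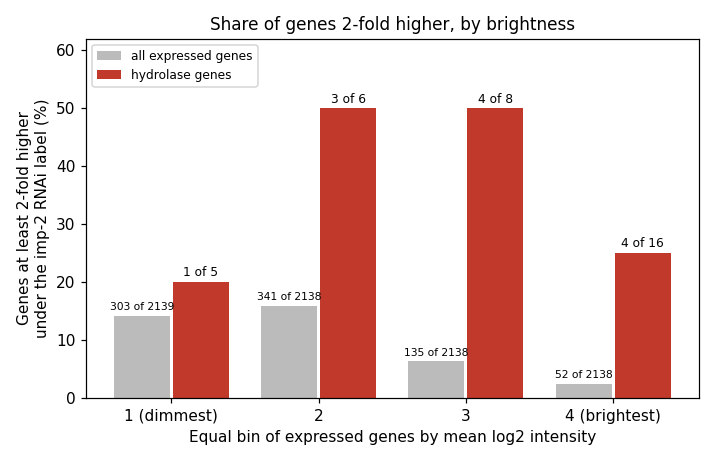
Percentage of genes 2-fold or more higher on the imp-2 array in each of 4 equal bins of the expressed genes by mean log2 intensity, for all expressed genes (grey) and the hydrolase genes (red), with the counts above the bars. The grey bars fall from 14.2% and 15.9% in the dimmer bins to 2.43% in the brightest, where 4 of 16 hydrolase genes are counted.

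Several hydrolase genes are neighbours, which was read from the gene order of the WBcel235 assembly with at most 5 genes from one to the next. Of these, cpr-5 and cpr-8 had log2 ratios of 0.93 and 1.02, and pho-10 and pho-11 had 0.49 (a lower bound) and 0.44. Other neighbours did not match: asp-5, asp-12 and asp-6 had 0.66, 0.29 and −0.38, and pho-4 and pho-1 had 1.01 and −0.18. The pair of different families, ctsa-2 and asp-14, had 1.32 and −0.75. Of the neighbours asp-1, asp-15, asp-16 and asp-17, only asp-1 was expressed, and asp-16 had no probe set of its own.

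Other hydrolases thought to act in lysosomes included larger ratios in a few genes. Of 13 expressed, 3 were 2-fold or more higher on the imp-2 array and none was lower to that degree, with a median log2 ratio of 0.22. Of all expressed genes, 9.72% were higher and 2.27% lower. The legumain gene lgmn-1, for an asparaginyl endopeptidase known in mammals to process cathepsins, read 651 on the imp-2 array and 162 on the GFP array (3.995-fold higher). The acid sphingomyelinase gene asm-1 was 2.37-fold higher and the ceramidase homologue asah-2 was 2.13-fold higher. Among the 13, crn-6 (44.6 and 28.3) is a lower bound that counted as expressed only through the imp-2 array. Without it, 3 of 12 were higher and the median was 0.216. The cystatin genes cpi-1 and cpi-2, whose products inhibit cysteine proteases, had log2 ratios of 0.46 and 0.61, within 2-fold.

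Genes of the lysosomal membrane and of the vacuolar ATPase, a proton pump that acidifies the lysosome, gave no calls. Over all expressed genes, 9.72% were higher and 2.27% lower. The pump genes were taken by symbol, which does not limit them to lysosomes. Of 19 expressed genes of the vacuolar ATPase, 0 were called in either direction, with a median log2 ratio of 0.12. Most of the 19 lie in the brightest bin, where only 2.43% of all genes were higher and 1.92% lower. The members furthest from 0 were vha-5 (0.79), vha-11 (−0.74, but −1.22 and past 2-fold on its other probe set) and vha-12 (0.61). Of 11 membrane proteins and transporters, 0 were called and the median was 0.08. The sterol transporter genes ncr-1 and ncr-2, homologues of the human NPC1 gene, had 0.92 and 0.85. The glo-3 gene, which acts in gut granule formation, had a lower bound of 0.77, which does not place it within 2-fold. It read 51.9 on the imp-2 array and 29.6 on the GFP array, so it counted as expressed only through the imp-2 array. Without glo-3, 0 of 10 were higher and the median was 0.01.

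The median log2 ratio of 24 expressed autophagy genes was 0.06. Of the 24, none was 2-fold or more lower, against 2.27% of all expressed genes, and 1 was higher, against 9.72%. The one was sqst-1, for the p62-like cargo receptor that autophagy consumes, at 1115 on the imp-2 array and 333 on the GFP array (3.32-fold higher, log2 ratio 1.66 on its other set). After it came sqst-2 (0.95) and epg-2 (0.93). Bounds among the 24 were unc-51, at least 1.70-fold higher (51.6 and 28.1), and atg-16.1, at least 1.30-fold lower (34.8 and 45.6). The unc-51 gene counted as expressed only through the imp-2 array, and its bound does not place it within 2-fold. Without these bounds, 1 of 22 was higher and the median was 0.06. Of 10 expressed regulators, 2 were higher and none was lower, beside the same 9.72% and 2.27%, with a median of −0.05. One of the 2 calls, elt-7, is a bound that counted as expressed only through the imp-2 array. Without it, 1 of 9 was higher and the median was −0.13. The zinc finger factor gene pqm-1 read 209 and 43.7 (4.75-fold higher), the intestinal GATA factor gene elt-7 was at least 2.24-fold higher, and mxl-2, a Max-like gene, had a log2 ratio of −0.86. The TFEB homologue hlh-30 read 77.2 and 107 (log2 ratio −0.49) and 92.7 and 85.7 on its other set (0.10).

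Cell type markers were read beside the hydrolase genes. The genes elt-7, vha-6 and cup-5 also stand in a list above. For each count of markers, the shares over all expressed genes are 9.72% higher and 2.27% lower. Some markers lay under the floor on the GFP array and counted as expressed only through the imp-2 array, so their ratios are bounds that could only be high, and the values without them are given too. Of 7 expressed intestine markers, 3 were 2-fold or more higher on the imp-2 array and none was lower to that degree, with a median log2 ratio of 0.93 and a summed intensity of 3181 against 2962. The gut esterase gene ges-1 was 2.72-fold higher (154 and 56.2), elt-7 at least 2.24-fold and the intermediate filament gene ifb-2 2.15-fold higher, while erm-1 had −0.66. Without elt-7 (68.1 and 29.7), 2 of 6 were higher and the median was 0.66. The defining intestinal factor elt-2 lay under the floor on both arrays (32.9 and 23.6). Of 6 expressed sperm markers, 2 were higher, with a median of 0.75 and a summed intensity of 6410 against 4586; spe-41 was at least 2.50-fold higher, gsp-4 was 2.02-fold higher and spe-11 lay at the threshold (140 and 69.6), while spe-9 and spe-38 lay under the floors. Without spe-41 (75.9 and 29.0), 1 of 5 was higher and the median was 0.50.

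Of 8 expressed epidermis markers, 2 were higher, with a median of 0.35 and a sum of 2270 against 2166; the collagen genes rol-6 and bli-1 were at least 3.02-fold and 2.43-fold higher and nhr-25 at least 1.71-fold higher. All 3 are such bounds, with GFP array values of 19.7, 15.1 and 28.4. Without them, 0 of 5 were higher and the median was 0.07. Over all expressed genes, 9.72% were higher and 2.27% lower. The collagen gene col-19 read 1264 and 1194 (log2 ratio 0.07), lin-26 read 473 and 570 (−0.28), and nhr-23 read 143 and 196 (−0.46).

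The other marker lists lay near 0. The medians were 0.09 for 6 body wall muscle genes, 0.03 for 5 pharynx genes, 0.03 for 8 neuron genes and −0.09 for 8 oocyte and germ line genes. Among these genes, the neuron gene unc-64 was 2-fold or more higher (log2 ratio 1.11) and none was lower to that degree. Furthest below 0 were the neuron gene unc-119 (−0.78) and the germ line gene gld-1 (−0.67, and −0.41 on its other set). Ratios were above 0 for 4 of the 8 neuron genes and 3 of the 8 oocyte and germ line genes. The shares over all expressed genes were 9.72% higher and 2.27% lower. The summed intensities were 9421 against 8411, 2711 against 2523, 2263 against 2160 and 18242 against 19426. Of 4 coelomocyte markers, only cup-5 was expressed (192 and 180), and unc-122, cup-4 and lgc-26 lay under the floors on both arrays. The part of intestine, sperm or epidermis content in the ratios of the hydrolase genes was not tested.

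**Figure D5:**
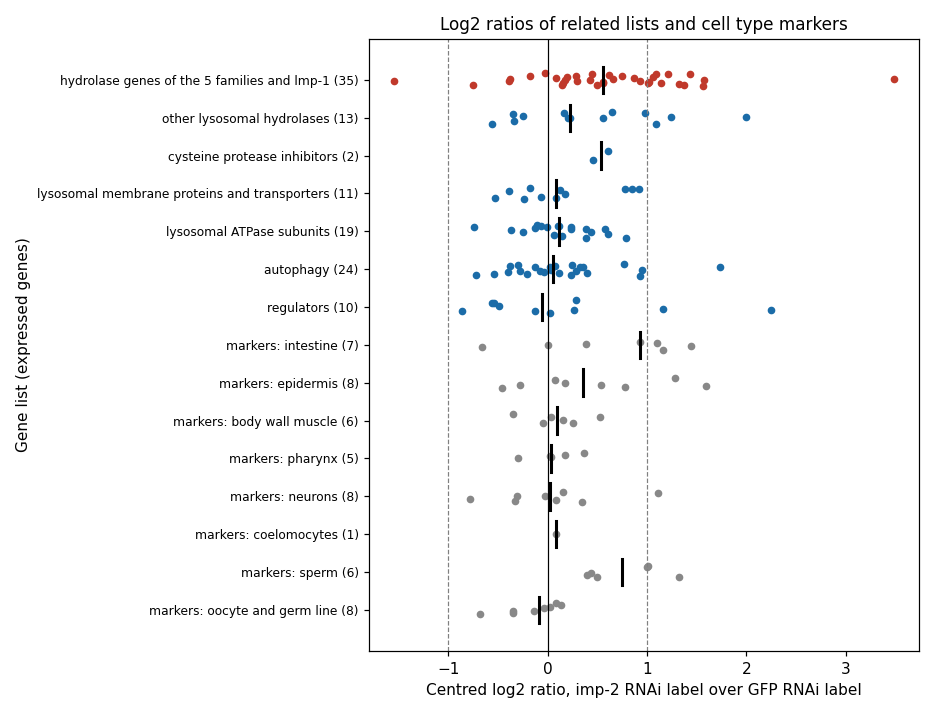
Centred log2 ratio of each expressed gene (points, shifted vertically for view) in the hydrolase genes (red), related lists (blue) and cell type markers (grey), with a black bar at each median, the number of genes in brackets and dashed lines at 2-fold. The medians are 0.56 for the hydrolase genes, 0.12 for the ATPase subunits, 0.06 for autophagy and 0.93 for the intestine markers.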

How the data were processed

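The deposited file holds linear intensities, 1 per probe set and array; how the authors summarised, background-corrected and scaled them is not stated in the labels. Trimming 2% at each end gave the same mean on both arrays, 150.04. The array's build is not given, so no coordinates are printed. Probe sets were named from the platform annotation: of 22548 that are not controls, 20766 had 1 gene. All 52 symbols matched the RefSeq table of WBcel235, and the family genes asp-2, asp-16, asp-18 and pho-12 had no set of their own.

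Intensities were converted to log2, the brightest set represented a gene, and 0.01, the median over expressed genes, was subtracted from each log2 ratio (numpy 2.4.6, pandas 2.3.3). The steps were run on simulated arrays with known changes and the same noise at every brightness. On the real arrays the share past 2-fold depended on brightness, so this run cannot check the calls. No p-value was computed with 1 array per group. The members, lists and thresholds were chosen with earlier results of these data known. The naming rule took members past 2-fold, the 3 brightest of each family, cpl-1, cpz-1 and lmp-1, members with sets of opposite sign, and up to 3 genes per other list with the largest absolute ratio. Other members, hlh-30, erm-1, elt-2, col-19, lin-26, nhr-23 and the unexpressed markers were named after their values were seen. Probe sets with a suffix for possible matches to several transcripts, which represent 12 of the 35 expressed genes, were left out in an alternative. Sequences and promoter motifs were not analysed here.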

Additional observations from a re-analysis of the deposited data

How the results depend on the processing

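The alternatives were the mean of a gene's probe sets, each set by itself, no floor, no filter on dim genes, the brightest genes only, quantile normalization (scaling both arrays to 1 distribution), intensity-dependent centring, no centring, no cross-matching sets and a 1.5-fold threshold. The number of hydrolase genes at least 2-fold higher was 12 and stayed within 1.5 times of that in each: it was 11 with the mean of sets, 14 of 43 with each set by itself, 10 with quantile normalization (8.15% of all genes), 10 with intensity-dependent centring (7.78%), 8 of 24 above the 75th percentile of brightness (4.49%) and 8 of 24 without cross-matching sets (10.2%). Without cross-matching sets, 3 cysteine cathepsin genes were at least 2-fold higher, beside 5 with them. For acid phosphatases the count of 2 was 0 above the 75th percentile of brightness. It was 1 with intensity-dependent centring, with quantile normalization and without cross-matching sets. At 1.5-fold, 17 hydrolase genes were higher, or 48.6%, against 19% of all genes. The number lower was 1, but 0 without cross-matching sets, since asp-13 has no other set. At 1.5-fold it was 2 of 35 (asp-13 and asp-14), against 9.6% of all genes. The median of 0.56 was 0.64 without the floor and 0.64 above the 75th percentile of brightness, and it was not below 0.51 in any of these alternatives. Of the called genes, pho-4 fell under 2-fold in 3 alternatives, cpr-8 and ctsa-4.1 in 2 each and cpl-1 in 1 (log2 ratio 0.90 as the mean of its sets). With the mean of sets, the log2 ratio of pho-1 was 0.20 and that of lmp-1 was 0.47. No called gene changed sign in an alternative that gave it a value. The cause of these changes was not tested. No paired analysis was possible because each group holds 1 array. Readings near the floors limit pho-6, pho-4, pho-9, pho-10 and asp-8.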
